A study of Mus musculus with 24 samples.

Results

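The 40 genes described here encode the proteases, glycosidases, lipid-handling enzymes and membrane proteins of the lysosome, the cysteine protease inhibitors Ctla2a and Ctla2b, and Tfeb, a transcription factor of lysosomal genes. They were chosen by name, with earlier results of these data known. Each also had to reach an FPKM (sequenced fragments per kilobase and library size) of at least 1 in at least 4 of 24 libraries. All 40 met that level, of 13039 genes that did so among 18892 in the table. The skin of 24 mice was sequenced, 1 library per mouse, with 4 mice in each of 6 groups. Treatment mice were injected daily with dihydrotestosterone (DHT, the potent androgen made from testosterone) and had an extract of Hanlianxiang (HLX, a traditional Chinese medicine formula) put on the skin. Model mice received the same DHT injections and the solvent alone on the skin. Control mice received saline injections and the solvent. Skin was taken on day 10 or day 15, and each mouse gave 1 time point. The labels used here give no strain, sex or age, and whole skin mixes epidermis, hair follicles, dermis and blood-derived cells.

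Lysosomes are acidic organelles in which proteins, glycans and lipids are broken down. Cysteine cathepsins and legumain cut proteins, glycosidases strip sugars, saposins and Npc2 present lipids to enzymes or carriers, and heavily glycosylated proteins such as Lamp1 line the membrane. The Ctla2 proteins resemble the propeptide that holds cathepsin L-type proteases inactive, and Ctla2a is known in mice to inhibit cathepsin L. In skin, cathepsin L is needed for normal hair follicle cycling, and mice that lack it lose hair; cathepsin K degrades collagen, and cathepsin S trims the invariant chain in antigen-presenting cells. Tfeb and its relatives bind CACGTG-type sequences near many lysosomal genes.

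The reads recovered from the FPKM steps came to between 37048896 and 41117262 per library. Several libraries stood apart before any lysosomal gene was considered. Transcripts of 9 kidney marker genes summed to 17.4 to 25.1 FPKM in model and 25.1 to 28.9 FPKM in control libraries of day 10, against 0.164 to 0.276 FPKM in treatment libraries of day 10 and at most 0.208 FPKM at day 15. The sum of 4 Y-linked genes was 22.3 to 33.4 FPKM in treatment day 10 replicate 3 and treatment day 15 replicates 1, 2 and 4, and 39.2 to 50.6 FPKM in the others. Among the 40 genes themselves, treatment day 15 replicate 3 had the lowest value of its group for 35 of 40 and the lowest of all 24 libraries for 16. Model day 15 replicate 3 and treatment day 15 replicate 2 each held the highest of all libraries for 12. The median within-group SD of the 40 genes was 0.37 on the log2(FPKM + 1) scale in treatment skin of day 15, against 0.13 to 0.18 in the other 5 groups. The part of these libraries in the results was not tested beyond leaving them out.

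Levels in FPKM spanned a wide range. FPKM depends on the length taken for each gene, which is not given in the sources used here. Levels of different genes are therefore compared only roughly. Ctsb, a cysteine protease of nearly all cells, was the highest by its mean over all libraries at 857 FPKM. Its values at day 10 were 774, 811, 927 and 970.3 FPKM in treatment, 764, 837, 775 and 823 in model and 696, 609, 677 and 657 in control skin. Those at day 15 were 985, 1238, 678 and 977 FPKM in treatment, 947, 907, 1193 and 929.7 in model and 914, 809.7, 761 and 903 in control skin. Model and control libraries overlapped at day 15 and stood apart at day 10, and Ctsb was called in neither comparison. Ctsd averaged 497 FPKM, Psap 472, Ctsk 366, Lamp1 359 and Ctla2a 235. At the other end Ctsw, a cathepsin of cytotoxic lymphocytes, averaged 1.12 FPKM. It reached 1 FPKM in 13 libraries, fewer than any other of the 40, and rested on 19 to 133 recovered reads. Ctsw values at day 10 were 0.689, 1.02, 0.828 and 1.04 FPKM in treatment, 0.877, 0.763, 1.42 and 1.31 in model and 0.773, 1.36, 0.961 and 1.22 in control skin. At day 15 they were 0.756, 2.10, 0.342 and 1.89 FPKM in treatment, 1.13, 0.611, 2.17 and 1.22 in model and 1.33, 1.60, 0.805 and 0.671 in control skin. All 6 groups overlapped. Tfeb averaged 1.71 FPKM and Idua 2.50 FPKM. The rest lay between.

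The first question is how DHT injections moved these genes by day 10, taken from model and control skin. DHT skin had higher transcript levels of 18 of the 40 genes and lower levels of 2. The rise included Ctla2a, 5 of 11 cysteine proteases and 4 of 9 glycosidases. The 2 that fell were Ctse, an endosomal aspartic protease, and Scarb2, a membrane receptor for glucocerebrosidase. Over all genes tested, 6.79% were called higher and 7.04% lower. With every library scaled to a common FPKM total these shares were 8.03% and 4.71%, with 19 of the 40 higher and 2 lower. A call means an adjusted p under 0.05 over all 13039 genes. Because the 40 genes were chosen with earlier results known, their shares beside those of all genes describe this set and do not test it. The median log2 difference of the 40 genes was 0.38 on the log2(FPKM + 1) scale, which all differences below use, and that of all tested genes was -0.016. All 4 model libraries lay above all 4 control libraries for 23 of the 40, against 12.5% of all genes, and below them for 1, against 9.3%. At day 15, from other mice, 13 of the 40 genes were higher in model than control skin and 1 was lower, with backgrounds of 4.23% and 6.56%. The common FPKM total gave 20 higher and none lower, with backgrounds of 5.7% and 3.63%. The median at day 15 was 0.39, against -0.03 for all tested genes, and the libraries lay apart upward for 21 genes (7.89% of all genes) and downward for 2 (12.3%).

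Calls at both days were made for 11 genes, 55.0% of those of day 10 and 78.6% of those of day 15. Over all tested genes 764 were called in the same direction at both days, 42.4% of those of day 10 and 54.3% of those of day 15. Ctla2a, Ctsh, Ctsk, Ctso, Lgmn, Hexa, Gusb, Man2b1, Asah1 and Cd63 rose at both, and Ctse fell at both. Neither day gave a call for 17 genes, Ctsb, Ctsd, Ctsl, Psap and Lamp2 among them. No gene's model-control difference was called as changed between days by limma's test of the interaction (0 of 40, with 0% of all genes called and 1 of 40 at an unadjusted p under 0.05, and 0 of 40 with voom on recovered reads). The call of a single gene was often close to the threshold. Leaving out 1 library left between 7 and 24 calls at day 10 and between 2 and 19 at day 15. These counts stand without the share of all genes called when that library is left out. Ctla2a, Ctso, Hexa, Gusb and Man2b1 at day 10 and Ctla2a and Gusb at day 15 were called without any 1 library, and each of the other calls was lost without at least 1.

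**Figure D1:**
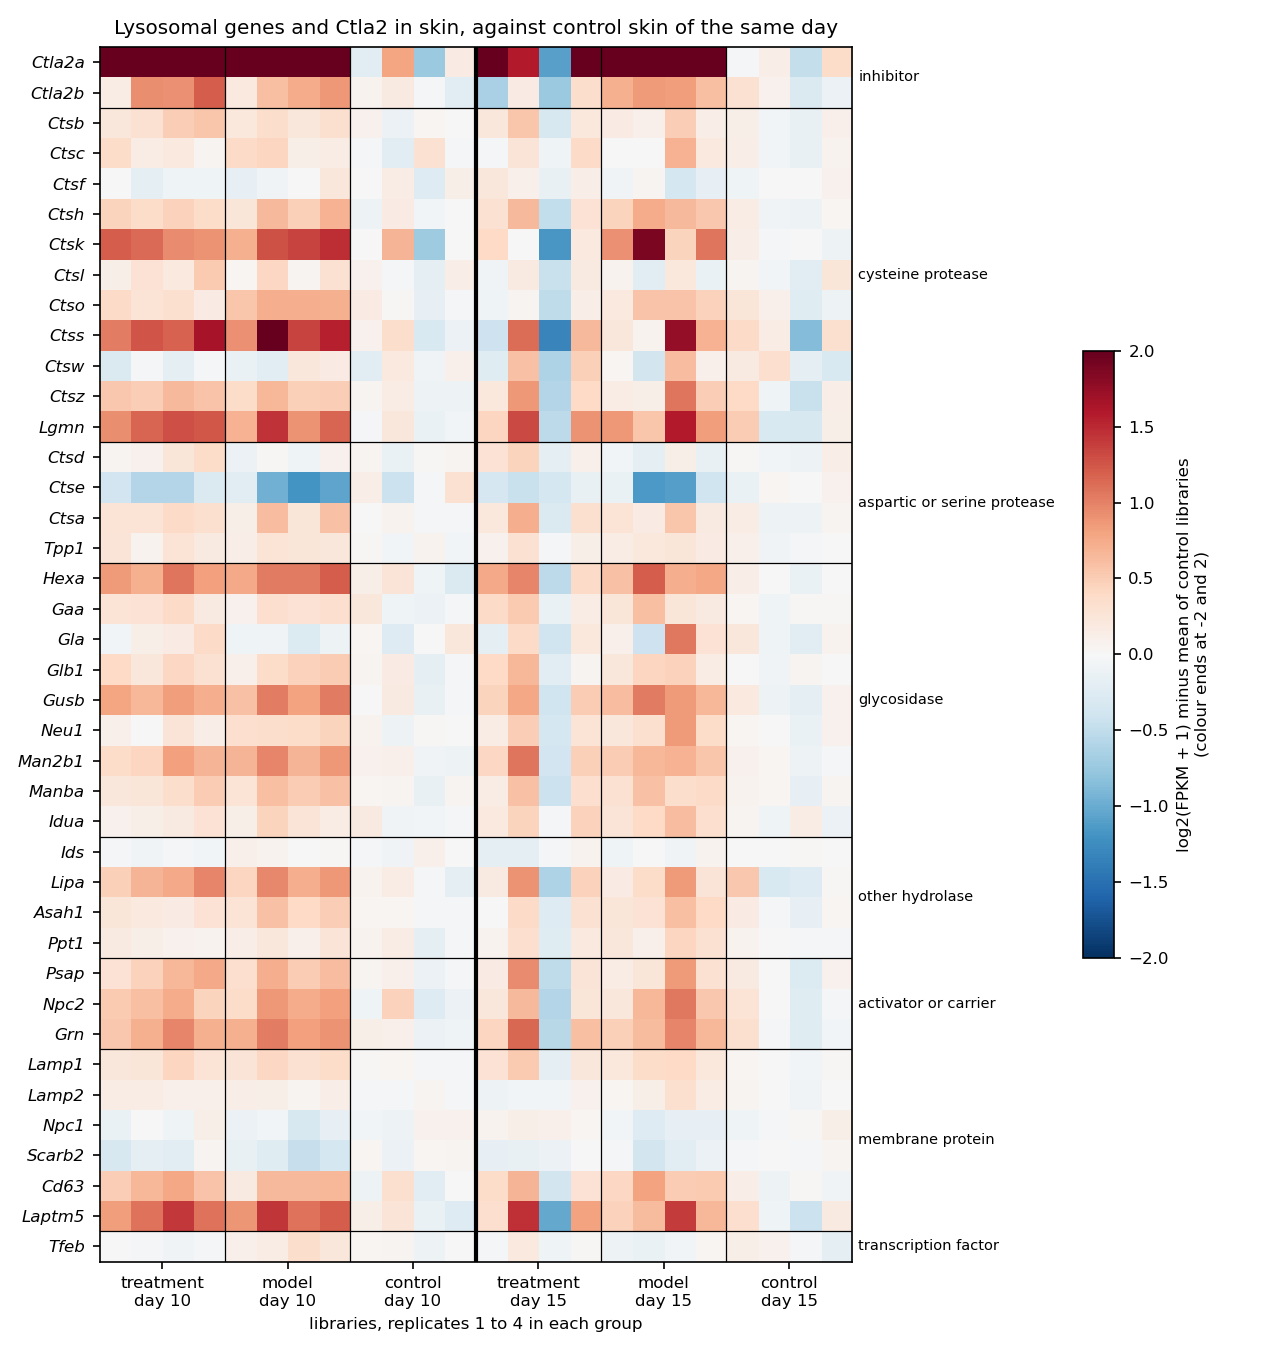
Each row is 1 of the 40 genes, ordered by role, and each column 1 library, with treatment, model and control left to right within day 10 and day 15. Colour gives log2(FPKM + 1) minus the mean of the control libraries of the same day. Most rows are red in model and treatment libraries of day 10, Ctse is blue there, and treatment day 15 replicate 3 is blue in most rows.

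The inhibitor Ctla2a had the largest model-control difference of the 40 at both days. At day 10 its values were 362, 369, 286 and 283 FPKM in treatment, 219.7, 324, 263 and 411 in model and 39.2, 79.3, 26.6 and 50.7 in control skin. Every treatment and every model library lay above every control library. At day 15 they were 285, 168, 25.6 and 232 FPKM in treatment, 566, 689, 313 and 409 in model and 54.5, 60.7, 39.4 and 71.8 in control skin. Model libraries again stood above all control libraries, and treatment replicate 3 lay below them all while its other replicates lay between control and model. Ctla2a averaged 304 ± 83.0 FPKM in model and 48.9 ± 22.5 FPKM in control skin (SD, n = 4 each) at day 10, a ratio of 6.22 and a log2 difference of 2.68 (SE 0.50, adjusted p = 0.00363). At day 15 it averaged 495 ± 167 FPKM in model and 56.6 ± 13.5 FPKM in control skin (SD, n = 4 each), a ratio of 8.74 and a difference of 3.07 (SE 0.50, adjusted p = 0.00266).

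Ctla2b, its paralog, was expressed at a far lower level and moved less. Its values at day 10 were 3.89, 7.38, 7.33 and 9.22 FPKM in treatment, 4.06, 5.68, 6.34 and 7.06 in model and 3.62, 3.98, 3.29 and 2.80 in control skin. Model libraries lay above control libraries, but the difference of 0.60 (SE 0.23, adjusted p = 0.0842) did not pass. At day 15 they were 3.20, 6.45, 2.93 and 7.47 FPKM in treatment, 9.85, 10.9, 10.8 and 9.05 in model and 7.21, 6.06, 4.42 and 5.10 in control skin. All model libraries were above all others, and the difference from control was 0.75 (SE 0.23, adjusted p = 0.0438). The Ctla2a to Ctla2b ratio of FPKM was 30.7 to 93.1 in treatment, 41.4 to 58.2 in model and 8.08 to 19.9 in control libraries of day 10. The FPKM ratio of Ctla2a to Ctsl was also taken. It was 1.34 to 2.28 in treatment, 1.46 to 2.28 in model and 0.207 to 0.553 in control libraries of day 10. It is of transcripts and not of protein, and the gene lengths are not given, so it is read between groups only. At day 15 that ratio was 0.184 to 1.57 in treatment, 1.43 to 4.23 in model and 0.244 to 0.333 in control libraries. Ctsl itself was not called in either comparison of model with control.

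Ctla2a and Ctla2b lie near each other on mouse chromosome 13, with Tpbpb between them in RefSeq's gene order and the cathepsin genes Ctsj and Ctsll3 as close neighbours. Their promoters are shown because both genes were higher in model skin of day 15 and they are near copies of each other. The RefSeq windows run from 250 bases before to 50 after the start site in build GRCm38.p6, read 5′ to 3′ on the gene's strand, and capitals mark the longest run that both share, 36 bases.
Ctla2a (chr13:60936576-60936875, minus strand): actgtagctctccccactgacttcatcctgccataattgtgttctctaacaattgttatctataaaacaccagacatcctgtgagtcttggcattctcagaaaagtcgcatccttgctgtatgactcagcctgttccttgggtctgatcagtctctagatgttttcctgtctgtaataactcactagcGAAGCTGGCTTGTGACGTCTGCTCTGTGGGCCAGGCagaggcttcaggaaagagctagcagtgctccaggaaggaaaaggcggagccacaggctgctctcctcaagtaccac
Ctla2b (chr13:60897398-60897697, minus strand): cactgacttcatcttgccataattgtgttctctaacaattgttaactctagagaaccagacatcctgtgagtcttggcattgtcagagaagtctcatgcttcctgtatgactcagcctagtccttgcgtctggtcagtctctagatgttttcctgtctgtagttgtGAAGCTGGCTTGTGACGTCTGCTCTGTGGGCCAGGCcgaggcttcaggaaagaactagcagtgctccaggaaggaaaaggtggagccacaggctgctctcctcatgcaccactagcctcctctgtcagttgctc
Of 278 aligned bases, 255 were identical (91.7%). Each window holds AGAACA, the half-site of the androgen response element, on 1 of its strands. AGAACA was in 10 of the 34 genes with a promoter in the table (29.4%) and in 21.3% of all genes. In the transcripts, 11.4% of 50-base windows of Ctla2a also occur in Ctla2b and 14.8% of those of Ctla2b in Ctla2a, by GENCODE M21. At 100 bases these shares were 1.1% and 1.5%. How the authors' counting dealt with such shared reads is not given in the sources used here, so reads that fit both genes cannot be told apart.

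**Figure D2:**
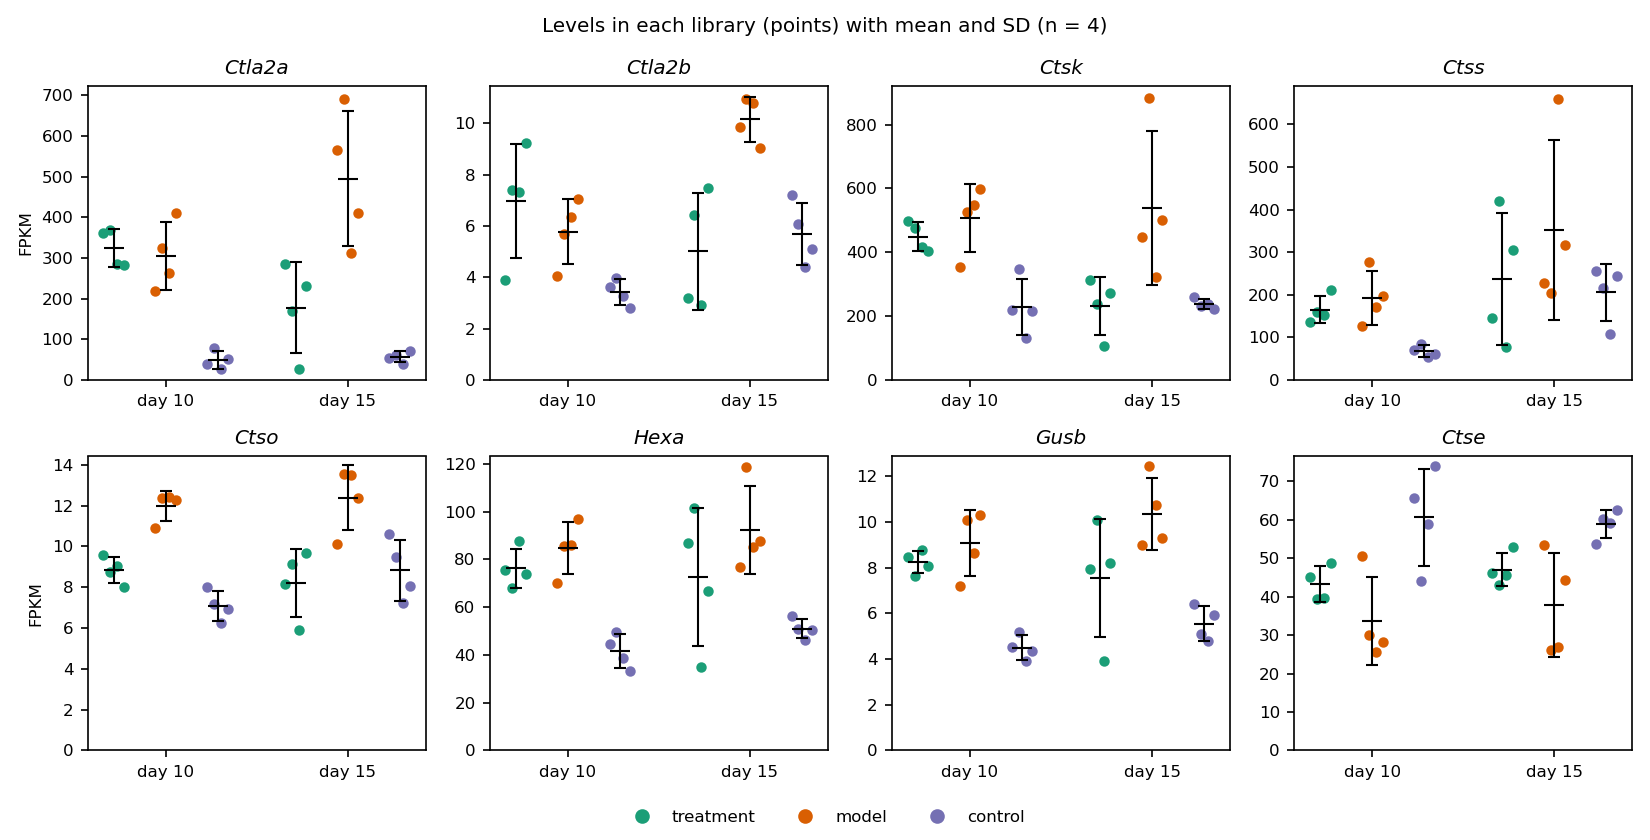
Points are FPKM of single libraries for 8 genes, with the group mean and SD (n = 4), in the order treatment, model and control within each day. Ctla2a is at least 219.7 FPKM in all model libraries and at most 79.3 FPKM in all control libraries. Ctse has its highest mean in control skin at both days.

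Of the 11 cysteine proteases, 5 rose in model skin at day 10 (Ctsk, Ctss, Lgmn, Ctso and Ctsh) and 4 at day 15, the same list without Ctss. Ctsk, the collagen-degrading cathepsin, had 499, 476, 417 and 405 FPKM in treatment, 355, 525, 549.8 and 599 in model and 218, 348, 132 and 216 in control skin at day 10. Its values at day 15 were 315, 238, 106 and 272 FPKM in treatment, 448, 882, 322 and 501 in model and 260.4, 232, 239 and 221 in control skin. Model libraries lay above control libraries at both days, by 1.20 (SE 0.31, adjusted p = 0.0175) at day 10 and 1.08 (SE 0.31, adjusted p = 0.0342) at day 15. Ctss, the antigen-presentation cathepsin, had 136, 160.4, 153 and 211 FPKM in treatment, 127, 278, 171 and 198 in model and 71.0, 84.9, 53.5 and 61.0 in control skin at day 10, and rose in model skin by 1.47 (SE 0.43, adjusted p = 0.0287). At day 15 its values were 146, 421, 77.2 and 305 FPKM in treatment, 228, 204, 659.9 and 316 in model and 255, 217, 107 and 243 in control skin. Control and model libraries then overlapped, and the difference of 0.69 (SE 0.43, adjusted p = 0.284) did not pass. Control skin of day 15 had more Ctss than control skin of day 10, by 1.53 (SE 0.43, adjusted p = 0.0435). Ctsk and Ctss are next to each other on chromosome 3 in RefSeq's gene order. The Ctsk to Ctss ratio of FPKM ran from 0.489 to 4.34 in model libraries of day 15, so these neighbours did not keep a fixed ratio.

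Lgmn, legumain, which cuts after asparagine and activates other cathepsins, had 114, 135, 147 and 143 FPKM in treatment, 97.1, 164, 111 and 135 in model and 58.6, 69.5, 54.0 and 57.1 in control skin at day 10, with model libraries above all control libraries. Its rise was 1.05 (SE 0.29, adjusted p = 0.0228) at day 10 and 0.96 (SE 0.29, adjusted p = 0.039) at day 15. Ctso, a little-studied cathepsin, had 9.57, 8.74, 9.06 and 8.03 FPKM in treatment, 10.9, 12.4, 12.4 and 12.3 in model and 8.03, 7.18, 6.24 and 6.95 in control skin at day 10, and all model libraries lay above the rest. At day 15 its values were 8.17, 9.15, 5.89 and 9.66 FPKM in treatment, 10.1, 13.6, 13.5 and 12.4 in model and 10.6, 9.50, 7.24 and 8.05 in control skin, and model and control libraries overlapped. The differences were 0.68 (SE 0.12, adjusted p = 0.00302) at day 10 and 0.45 (SE 0.12, adjusted p = 0.0285) at day 15. Ctsh, an aminopeptidase, rose by 0.52 (SE 0.16, adjusted p = 0.0328) at day 10 and 0.59 (SE 0.16, adjusted p = 0.0231) at day 15, and averaged 213 ± 19.1 FPKM in model and 141 ± 11.3 FPKM in control skin (SD, n = 4 each) at day 15. The other 6 (Ctsb, Ctsc, Ctsf, Ctsl, Ctsw and Ctsz) were not called at either day. Their differences were 0.00 to 0.50 at day 10 and -0.13 to 0.45 at day 15.

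Of the 4 aspartic or serine proteases, Ctse went the opposite way to most of the 40. Its values at day 10 were 45.2, 39.4, 39.6 and 48.8 FPKM in treatment, 50.7, 30.1, 25.5 and 28.2 in model and 65.6, 44.2, 58.9 and 73.9 in control skin. Model replicate 1 overlapped the control libraries, and the other 3 model libraries lay below them. At day 15 they were 46.3, 43.1, 45.7 and 53.0 FPKM in treatment, 53.6, 26.1, 26.9 and 44.4 in model and 53.8, 60.2, 59.2 and 62.5 in control skin, and all model libraries lay below all control libraries. Ctse fell by 0.86 (SE 0.21, adjusted p = 0.0132) at day 10 and by 0.69 (SE 0.21, adjusted p = 0.0393) at day 15. The day 15 call was lost with the common FPKM total (adjusted p = 0.0579), without the filter and with only the groups compared. Tpp1, the tripeptidyl peptidase, rose at day 10 by 0.22 (SE 0.06, adjusted p = 0.0295), a small step with 26.0 ± 1.03 FPKM in model and 22.2 ± 0.963 FPKM in control skin (SD, n = 4 each). Ctsd, the main aspartic cathepsin, differed by -0.02 (SE 0.11, adjusted p = 0.912) at day 10 and by -0.07 (SE 0.11, adjusted p = 0.699) at day 15. Ctsa, the carboxypeptidase that protects Neu1 and Glb1, differed by 0.39 (SE 0.15, adjusted p = 0.082) and 0.29 (SE 0.15, adjusted p = 0.188) at these days. Neither passed.

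Among the 9 glycosidases, Hexa, Gusb, Man2b1 and Manba rose at day 10, and Hexa, Gusb, Man2b1, Neu1 and Idua at day 15. Hexa, the alpha subunit of beta-hexosaminidase, had 75.5, 68.2, 87.6 and 73.9 FPKM in treatment, 70.2, 85.5, 86.2 and 97.1 in model and 44.8, 49.7, 38.8 and 33.4 in control skin at day 10. Its values at day 15 were 87.0, 101, 34.9 and 66.9 FPKM in treatment, 76.8, 119, 85.2 and 87.8 in model and 56.2, 51.0, 46.4 and 50.5 in control skin. Model libraries lay above control libraries at both days, and treatment replicate 3 of day 15 was below every control library of its day. The differences of Hexa were 1.01 (SE 0.22, adjusted p = 0.00777) at day 10 and 0.82 (SE 0.22, adjusted p = 0.0246) at day 15. Gusb, beta-glucuronidase, had 8.45, 7.64, 8.79 and 8.07 FPKM in treatment, 7.21, 10.1, 8.63 and 10.3 in model and 4.52, 5.20, 3.92 and 4.37 in control skin at day 10. At day 15 it had 7.92, 10.1, 3.92 and 8.22 FPKM in treatment, 8.98, 12.4, 10.7 and 9.30 in model and 6.42, 5.09, 4.77 and 5.93 in control skin. Its model and control libraries did not overlap at either day, with differences of 0.86 (SE 0.17, adjusted p = 0.00512) and 0.79 (SE 0.17, adjusted p = 0.0114). Man2b1, the lysosomal alpha-mannosidase, had 21.1, 22.0, 29.2 and 26.2 FPKM in treatment, 26.4, 32.7, 26.3 and 30.0 in model and 17.1, 17.3, 15.2 and 14.9 in control skin at day 10, and its differences were 0.80 (SE 0.18, adjusted p = 0.0103) and 0.61 (SE 0.18, adjusted p = 0.0417) at day 10 and day 15. Manba, the beta-mannosidase, rose by 0.49 (SE 0.14, adjusted p = 0.029) at day 10, with 8.26 ± 0.946 FPKM in model and 5.58 ± 0.455 FPKM in control skin (SD, n = 4 each). Neu1, the sialidase, rose by 0.44 (SE 0.14, adjusted p = 0.042) at day 15, with 7.63 ± 1.82 FPKM in model and 5.27 ± 0.419 FPKM in control skin (SD, n = 4 each). This call was lost when any 1 of 7 libraries was left out and in 5 of 11 alternatives. Model replicate 3 had 10.3 FPKM, and the other model libraries 6.32 to 7.06 FPKM. Idua, which cleaves iduronic acid from dermatan and heparan sulfate, rose by 0.40 (SE 0.11, adjusted p = 0.0265) at day 15, with 3.14 ± 0.456 FPKM in model and 2.12 ± 0.272 FPKM in control skin (SD, n = 4 each). Gaa, Gla and Glb1 were not called at either day, with differences between -0.13 and 0.36.

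Lipid-handling members rose in part. Asah1, acid ceramidase, rose by 0.44 (SE 0.11, adjusted p = 0.0166) at day 10, with 55.9 ± 5.16 FPKM in model and 41.0 ± 1.17 FPKM in control skin (SD, n = 4 each), and by 0.38 (SE 0.11, adjusted p = 0.0348) at day 15. Lipa, the acid lipase for cholesteryl esters, rose at day 10 by 0.75 (SE 0.24, adjusted p = 0.0428), with 27.4 ± 4.44 FPKM in model and 15.8 ± 1.69 FPKM in control skin (SD, n = 4 each). At day 15 its difference of 0.41 (SE 0.24, adjusted p = 0.251) did not pass. Ppt1, which removes fatty acids from proteins, was called at neither day, and nor was Ids, a sulfatase of dermatan and heparan sulfate. Of the 3 activators and carriers, Grn, which encodes progranulin, had 128, 144, 173 and 145 FPKM in treatment, 144, 179, 156 and 164 in model and 94.9, 93.9, 80.3 and 82.4 in control skin at day 10. Model libraries lay above control libraries, and Grn rose by 0.86 (SE 0.22, adjusted p = 0.0171). At day 15 the difference was 0.68 (SE 0.22, adjusted p = 0.0521) and did not pass. Npc2, the soluble sterol carrier, rose by 0.70 (SE 0.21, adjusted p = 0.0332) at day 10, where model and control libraries overlapped and averaged 116 ± 17.1 FPKM in model and 71.9 ± 17.4 FPKM in control skin (SD, n = 4 each). Psap, the saposin precursor, differed by 0.54 (SE 0.21, adjusted p = 0.0814) at day 10 and did not pass.

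Of the 6 membrane proteins, Lamp1, Cd63 and Laptm5 rose at day 10, Scarb2 fell, and at day 15 Cd63 rose. Laptm5, a protein of blood-cell lysosomes, had 36.2, 43.5, 54.7 and 43.2 FPKM in treatment, 37.3, 55.0, 43.1 and 47.1 in model and 21.7, 23.9, 18.1 and 16.5 in control skin at day 10, with no overlap between model and control. It rose by 1.15 (SE 0.34, adjusted p = 0.0301), and its day 15 difference of 0.79 (SE 0.34, adjusted p = 0.122) did not pass. Cd63, a tetraspanin of late endosomes, had 193, 218, 234 and 204 FPKM in treatment, 154, 214, 215 and 217 in model and 128, 170.1, 116 and 137 in control skin at day 10 and rose by 0.53 (SE 0.16, adjusted p = 0.0366), although model replicate 1 was within the control range. At day 15 it rose by 0.56 (SE 0.16, adjusted p = 0.0366). Lamp1 rose by 0.34 (SE 0.10, adjusted p = 0.0285) at day 10, with 379 ± 17.7 FPKM in model and 299.6 ± 7.90 FPKM in control skin (SD, n = 4 each). Scarb2 fell by 0.30 (SE 0.08, adjusted p = 0.0217) at day 10, with 43.2 ± 4.10 FPKM in model and 53.2 ± 3.03 FPKM in control skin (SD, n = 4 each). Lamp2 and Npc1, the sterol exporter, were not called. Tfeb, the transcription factor, had 1.70, 1.60, 1.56 and 1.62 FPKM in treatment, 1.88, 1.97, 2.41 and 2.15 in model and 1.76, 1.80, 1.49 and 1.68 in control skin at day 10, all model libraries lying above the others, but its difference from control of 0.21 (SE 0.08, adjusted p = 0.0762) did not pass. Between day 10 and day 15 of model skin Tfeb fell by 0.30 (SE 0.08, adjusted p = 0.0268).

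**Figure D3:**
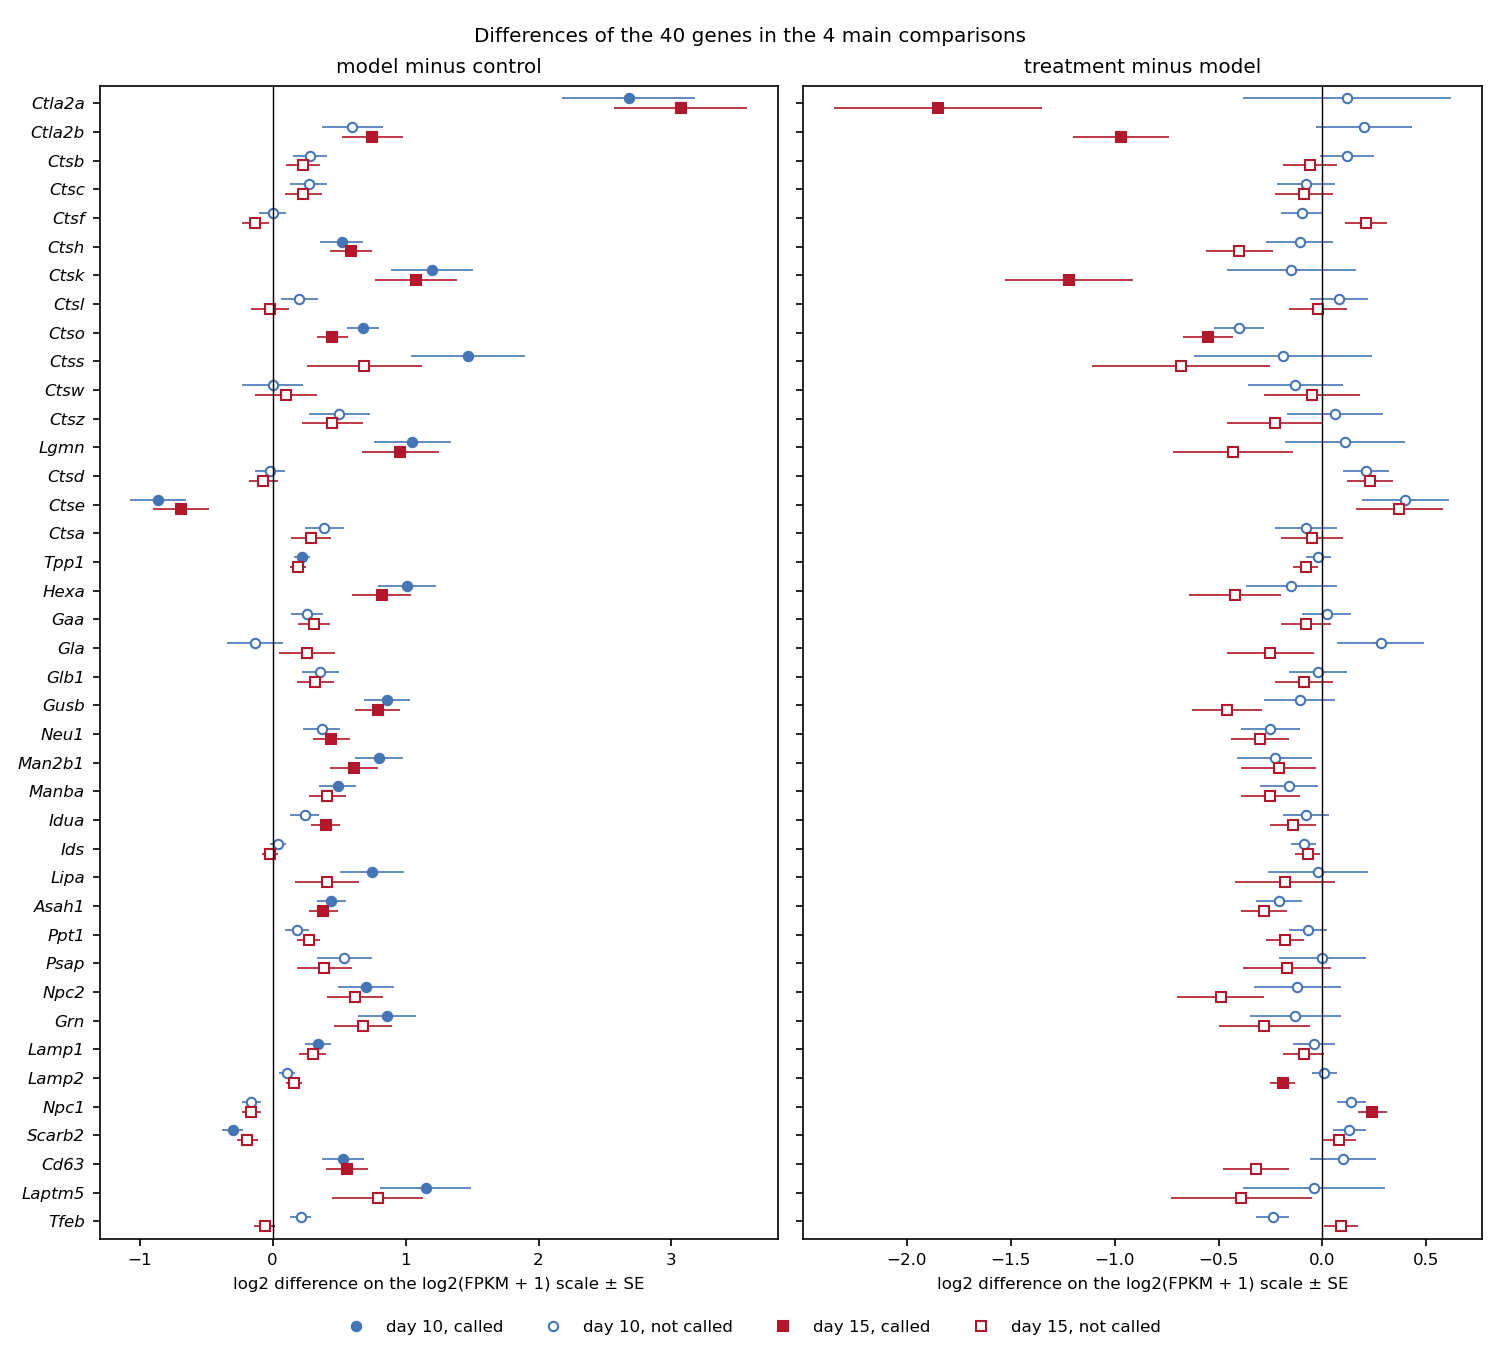
Log2 differences with their SE for the 40 genes, model minus control on the left and treatment minus model on the right, with filled symbols for calls. Most genes lie right of 0 in the left panel at both days, with Ctla2a farthest out at 2.68 and 3.07. In the right panel day 10 has no filled symbol, and Ctla2a, Ctsk and Ctla2b lie farthest left at day 15.

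Promoter windows of 34 of the 40 genes were in the RefSeq table (build GRCm38.p6), and none was found there for Asah1, Ctsb, Ctse, Ctsh, Ctsw and Npc1. CACGTG, the E-box that Tfeb and its relatives bind and which reads the same on both strands, was in 9 of the 34 (26.5%) and in 8.09% of all genes. These 9 were Ctsd, Ctsa, Gla, Glb1, Gaa, Ctsf, Ctsl, Lgmn and Lamp1. The longer TCACGTGA, which contains it, was in 3 (Ctsd, Ctsa and Gla, 8.82%) and in 1.12% of all genes. Parts of 4 promoters with the E-box in capitals are shown. The whole windows of Ctsd, Ctsa and Gla hold 2 copies each and that of Lamp1 holds 4, the most of the 34. The Ctsd stretch shows 1 of its 2 copies.
Ctsd (chr7:142387905-142387940, minus strand): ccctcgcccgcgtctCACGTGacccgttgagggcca
Ctsa (chr2:164833746-164833798, plus strand): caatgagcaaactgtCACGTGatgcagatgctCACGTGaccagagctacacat
Gla (chrX:134601179-134601247, minus strand): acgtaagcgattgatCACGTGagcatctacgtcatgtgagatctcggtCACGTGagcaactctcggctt
Lamp1 (chr8:13159085-13159166, plus strand): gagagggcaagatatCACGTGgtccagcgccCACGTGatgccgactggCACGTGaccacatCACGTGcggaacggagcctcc
Of 19 genes with a promoter in the table that were higher in model skin at either day, 2 held CACGTG (Lgmn and Lamp1), and of the other 15 genes 7 did. GAGGAAGT, a sequence bound by the myeloid factor PU.1, searched on both strands, was in 4 of the 34 (Ctsc, Ctss, Gla and Gusb, 11.8%) and in 3.69% of all genes. A match describes these letters in this window and no more.

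Other genes of the lysosome were followed by lists. For the model-control difference the background was 6.79% up and 7.04% down at day 10, and 4.23% up and 6.56% down at day 15. Read beside it, the counts of other membrane proteins at both days and of other hydrolases at day 15 are near the background. In the lists of 13 to 16 genes 1 gene is a large share. Counts of 1 to 3 calls there are not read as differing from the background. No list's count was tested against these shares. Of 34 other soluble hydrolases tested, 10 rose and 3 fell in model skin at day 10, with a median of 0.27. Prcp, a carboxypeptidase, rose by 0.52 (SE 0.13, adjusted p = 0.0129), Siae, which removes acetyl groups from sialic acid, by 0.41 (SE 0.11, adjusted p = 0.0172), Pla2g15, a phospholipase, by 0.81 (SE 0.21, adjusted p = 0.0174) and Aga by 0.36 (SE 0.10, adjusted p = 0.0202). At day 15, 3 rose and 2 fell, Smpd1, acid sphingomyelinase, by 0.36 (SE 0.09, adjusted p = 0.0175) and Pcyox1 by 0.25 (SE 0.06, adjusted p = 0.0146). Of 26 other membrane proteins tested, 2 rose and 2 fell at day 10, and 1 rose and 1 fell at day 15. Cd68, which is also a macrophage marker, rose by 1.25 (SE 0.32, adjusted p = 0.0159), and Ctns, the cystine exporter, fell by 0.55 (SE 0.16, adjusted p = 0.0256). At day 15 Mcoln2, an ion channel, rose by 1.14 (SE 0.34, adjusted p = 0.0411), and Cln8 fell by 0.32 (SE 0.08, adjusted p = 0.0156). None of 21 proton pump subunits was called in model against control at either day by limma (4 at an unadjusted p under 0.05 at each day). Of 16 genes of the MiT/TFE factors and of mTORC1 at the lysosome, 3 rose at day 10 (Rragc, Fnip1 and Flcn, by 0.19 to 0.33), and 1 at day 15 (Tfec, by 0.89, SE 0.27, adjusted p = 0.0424). Of 14 sorting receptors and mannose 6-phosphate enzymes, limma called none at day 10 (3 at an unadjusted p under 0.05) and 1 that rose at day 15 (Sumf1). Of 13 other cysteine protease inhibitors tested, 2 fell at day 10, the stefin Stfa2 by 1.59 (SE 0.39, adjusted p = 0.014) and Serpinb13 by 0.53 (SE 0.16, adjusted p = 0.0347), and none was called at day 15 (6 at an unadjusted p under 0.05). Of 15 autophagy genes, 2 fell at day 10 and 2 at day 15, Calcoco1 at both. Of the other cathepsin genes listed, 2 were in the table and none reached the level for testing.

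Markers of some other cell types also differed between model and control skin. The shares of all tested genes called were 6.79% higher and 7.04% lower at day 10, and 4.23% and 6.56% at day 15. Of 12 macrophage markers, 11 rose in model skin at day 10, and their summed level was 1649 to 2389 FPKM in model and 659.9 to 1050.2 FPKM in control libraries. At day 15, 3 of 12 rose, with sums of 2123 to 4337 FPKM in model and 1066 to 2145 FPKM in control libraries. Of 7 fibroblast markers, 2 rose at day 10 (Col3a1 and Dcn), with sums of 7079 to 10826 FPKM in model and 4077 to 6241 FPKM in control libraries, and 3 rose at day 15. Of 5 neutrophil markers tested, 2 rose at day 10, and of 6 endothelial markers 2 rose at day 10 and 1 at day 15. In the mast cell list 1 of 6 fell at day 10, while the list's sum was 93.1 to 182 FPKM in model and 82.4 to 158 FPKM in control libraries. In the Langerhans cell list 1 of 4 fell at each day. Its sum was 702 to 887 FPKM in model and 429 to 655 FPKM in control libraries of day 10. At day 15 that sum was 738 to 1386 FPKM in model and 622 to 1023 FPKM in control libraries. In the epidermis list 2 of 6 (Krt5 and Krt14) fell at day 15. Of 5 T cell, 6 cytotoxic, 6 skeletal muscle and 5 adipocyte markers, limma called none in model against control; at an unadjusted p under 0.05 there were 1 skeletal muscle marker at day 10, and 2 of them and 1 adipocyte marker at day 15. In whole skin, more cells of a type and more RNA per cell cannot be told apart. The part of these cells in the rise of Ctss, Laptm5, Lgmn, Ctsk or the other genes was not tested.

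**Figure D4:**
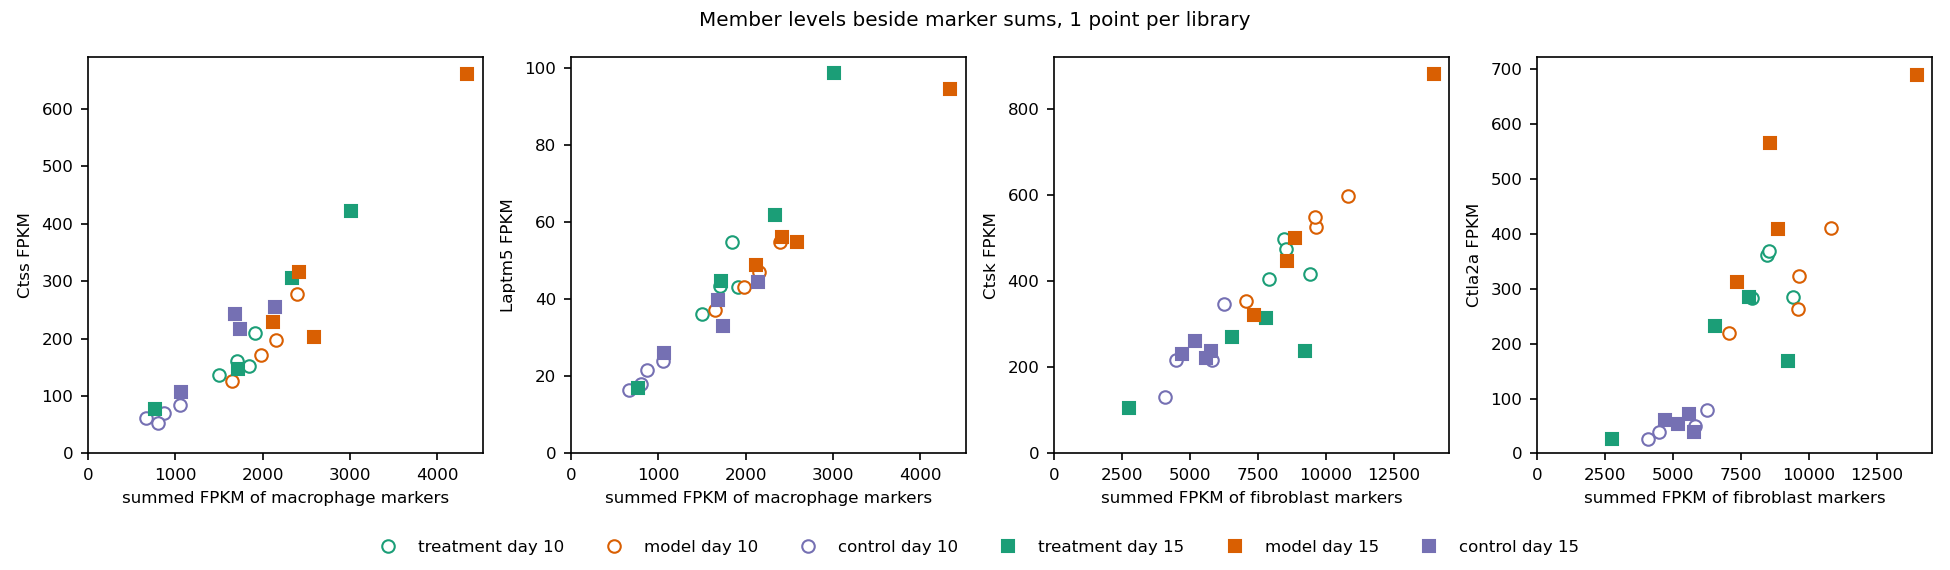
FPKM of Ctss and Laptm5 against the summed FPKM of 12 macrophage markers, and of Ctsk and Ctla2a against that of 7 fibroblast markers, 1 point per library. Ctss is highest in model day 15 replicate 3 (659.9 FPKM), which also has the highest macrophage sum (4337 FPKM), and Ctsk is highest in model day 15 replicate 2 (882 FPKM), which has the highest fibroblast sum (13981 FPKM).

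Treatment against model asks what the HLX extract did under DHT. Treatment libraries of day 10 also differ from model libraries in the summed kidney markers, 0.164 to 0.276 against 17.4 to 25.1 FPKM. All libraries with low Y-linked transcripts are treatment libraries. The part of these differences in the comparisons was not tested beyond leaving out the libraries with low Y-linked transcripts. At day 10 no member was called by limma (0 of 40, with 0.192% of all genes called, 2 of 40 at an unadjusted p under 0.05, and 0 of 40 with voom on recovered reads). Ctla2a differed by 0.12 (SE 0.50, adjusted p = 0.96) and Ctla2b by 0.20 (SE 0.23, adjusted p = 0.808). The 2 with an unadjusted p under 0.05 were Ctso, at -0.40 (SE 0.12, adjusted p = 0.23), and Tfeb, at -0.24 (SE 0.08, adjusted p = 0.261). Treatment libraries lay above all model libraries for 1 of the 40 (2.75% of all genes) and below them for 4 (6.24%). The median of the 40 was -0.06, against -0.03 for all tested genes.

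At day 15 treatment skin had lower levels of 5 of the 40 genes than model skin, Ctla2a, Ctla2b, Ctsk, Ctso and Lamp2, and a higher level of Npc1. Over all tested genes 9.32% were called lower and 10.3% higher, so these counts of 5 (12.5%) and 1 (2.5%) are near or under the background. The count rested on the libraries included. Without treatment day 15 replicate 2, 15 were lower and 1 was higher, with 1306 genes (of 13039) called lower and 1629 higher. Without the 4 libraries with low Y-linked transcripts, replicate 3 is the only treatment library left at day 15. That library had the lowest value of its group for 35 of the 40. Calls from a fit on it alone follow from which library stays, and their count is not given. The count with all libraries also moved with scaling. The common FPKM total gave 8 lower and none higher (12.7% and 5.19% of all genes), and quantile normalization gave 5 lower and 2 higher (7.16% and 13.3%). The libraries lay apart downward for 4 (4.79% of all genes) and upward for 1 (7.98%). Ctla2a averaged 178 ± 112 FPKM in treatment and 495 ± 167 FPKM in model skin (SD, n = 4 each), a difference of -1.85 (SE 0.50, adjusted p = 0.0154). Its 4 treatment libraries, 25.6 to 285 FPKM, were all below the 4 model libraries. Ctla2b averaged 5.01 ± 2.29 FPKM in treatment and 10.2 ± 0.883 FPKM in model skin, a difference of -0.97 (SE 0.23, adjusted p = 0.00817). Ctsk averaged 232 ± 90.2 FPKM in treatment and 539 ± 241 FPKM in model skin, and fell by 1.22 (SE 0.31, adjusted p = 0.0116). Ctso fell by 0.55 (SE 0.12, adjusted p = 0.00562), with no overlap between treatment and model libraries. Lamp2, a lining protein of the membrane, had 95.2, 98.2, 98.2 and 108 FPKM in treatment, 104, 111, 128 and 113 in model and 106, 103, 97.0 and 102 in control skin, and the small fall of 0.19 (SE 0.06, adjusted p = 0.0266) came with overlap. Npc1 had 27.2, 28.1, 27.7 and 26.6 FPKM in treatment, 24.9, 21.3, 23.0 and 23.0 in model and 24.1, 25.1, 26.2 and 27.9 in control skin, and its rise of 0.24 (SE 0.07, adjusted p = 0.0199) came without overlap.

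The same 4 genes that fell without overlap had risen in model against control skin of day 15, a pair of differences that share the model libraries. How many of all tested genes had this pair of calls is not given here. Side by side, treatment minus model and model minus control were -1.85 and 3.07 for Ctla2a, -0.97 and 0.75 for Ctla2b, -1.22 and 1.08 for Ctsk, and -0.55 and 0.45 for Ctso. The glycosidases that rose in model skin did not pass in treatment against model, with Hexa at -0.42 (SE 0.22, adjusted p = 0.171) and Gusb at -0.46 (SE 0.17, adjusted p = 0.0629). The differences of Ctla2a, Ctla2b, Ctsk and Ctso were called without any 1 library. That of Ctla2a ranged from -2.22 to -1.08, the smallest being without treatment day 15 replicate 3. With the spread taken from the 2 groups alone, no member and no gene of the 13039 was called. Macrophage sums were 761 to 3013 FPKM in treatment and 2123 to 4337 FPKM in model libraries, and fibroblast sums 2747 to 9235 FPKM in treatment and 7367 to 13981 FPKM in model libraries. In these lists 3 of 12 and 2 of 7 markers fell, where 9.32% of all tested genes were called lower. The part of macrophages and fibroblasts in the lower Ctsk and Ctla2a was not tested. No member's treatment-model difference was called as changed between days by limma (0 of 40, with 0.0997% of all genes called, 6 of 40 at an unadjusted p under 0.05, and 0 of 40 with voom). For Ctla2a that change was -1.97 (SE 0.71, adjusted p = 0.216) and for Ctla2b -1.17 (SE 0.33, adjusted p = 0.138).

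Among the listed lysosomal genes at day 15, 4 of 34 other soluble hydrolases rose in treatment against model and 1 fell, with 10.3% of all tested genes called higher and 9.32% lower. Read against these shares, the counts of the hydrolases, membrane proteins, sorting genes and autophagy genes that rose are near the background. Smpd1 rose by 0.56 (SE 0.09, adjusted p = 0.000838), Ppt2 by 0.54 (SE 0.10, adjusted p = 0.00177) and Pcyox1 by 0.25 (SE 0.06, adjusted p = 0.00634), while Aga fell by 0.34 (SE 0.10, adjusted p = 0.019). Of 26 other membrane proteins 2 rose, Cln8 and Sidt2. Of 21 proton pump subunits 1 fell, Atp6ap2, by 0.36 (SE 0.08, adjusted p = 0.00481). Of the 16 MiT/TFE and mTORC1 genes 4 fell: Fnip1 by 0.55 (SE 0.11, adjusted p = 0.00232), Flcn by 0.28 (SE 0.07, adjusted p = 0.0106), and Lamtor3 and Rragc by smaller steps. Of 14 sorting genes 2 rose, Sort1 and Sumf2, and of 15 autophagy genes 2 rose, Calcoco1 and Map1lc3a. None of the 13 other cysteine protease inhibitors was called by limma (1 at an unadjusted p under 0.05).

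Treatment against control shows where DHT and extract together stood. At day 10 these groups also differ in the kidney transcripts given above, and the part of that difference was not tested. At day 10, 5 of the 40 were higher in treatment skin, with a background of 2.2%, and none was lower (1.04% of all genes). With the common FPKM total the same counts came with backgrounds of 2.6% and 0.683%, and with median-of-ratios scaling of 2.3% and 0.652%. They were Ctla2a at 2.80 (SE 0.50, adjusted p = 0.00546), Lgmn at 1.16 (SE 0.29, adjusted p = 0.0347), Hexa at 0.87 (SE 0.22, adjusted p = 0.0371), Gusb at 0.75 (SE 0.17, adjusted p = 0.0226) and Cd63 at 0.63 (SE 0.16, adjusted p = 0.0419). The count fell to 1 without control replicate 1, 3 or 4 or treatment replicate 2 or 3, and to 2 without treatment replicate 4. The share of all genes called without each of these libraries is not given beside these counts. At day 15 no member was called by limma (0 of 40, with 0.314% of all genes called, 4 of 40 at an unadjusted p under 0.05, and 0 of 40 with voom). Ctla2a averaged 178 ± 112 FPKM in treatment and 56.6 ± 13.5 FPKM in control skin (SD, n = 4 each), a difference of 1.22 (SE 0.50, adjusted p = 0.183). This result turned on treatment day 15 replicate 3. Without it 17 of the 40 were higher in treatment than in control skin and none was lower. The calls over all genes numbered 2665 with it left out, against 41 with all libraries. These totals count higher and lower genes together, so they give no background for the 17 higher genes alone.

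From day 10 to day 15 few of the 40 moved. In treatment skin Ctsk fell by 1.05 at day 15 (SE 0.31, adjusted p = 0.0381), with 2.11% of all genes called higher and 7.53% lower. With median-of-ratios scaling those shares were 4.37% and 5.12%, 3 of the 40 were higher, and Ctsk did not pass (-0.98, adjusted p = 0.0543). In model skin Ctsc, the dipeptidyl peptidase that activates granule proteases, was higher at day 15 by 0.46 (SE 0.14, adjusted p = 0.0485) and Tfeb was lower, with 1.62% of all genes called higher and 6.85% lower. With median-of-ratios scaling those shares were 2.08% and 1.76%, 2 of the 40 were higher and none was lower, and Tfeb differed by -0.22 (adjusted p = 0.113). In control skin Ctsc, by 0.50 (SE 0.14, adjusted p = 0.0465), and Ctss were higher at day 15, with backgrounds of 1.48% higher and 3.33% lower. With median-of-ratios scaling these were 1.72% and 1.16%, and Ctss did not pass (1.62, adjusted p = 0.0521). Quantile normalization also moved the balance of calls between the days, and Tfeb did not pass with it (adjusted p = 0.0859). Each of these comparisons lost all its calls without some 1 library, and the libraries of the 2 days also differ, in model and control skin, in the kidney transcripts given above.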

How the data were processed

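Per the labels' protocols, RNA was extracted with TRIzol and libraries were made with a VAHTS Universal V6 kit from poly(A) RNA. Per the submitters' processing notes, fastp, HISAT2 and HTSeq were used with build GRCm39; versions, annotation and strand setting are not given in the sources used here. The authors deposited FPKM per gene symbol, and all 24 columns were used as they stand. Whole reads were recovered from the steps between FPKM values for 100.0% of 17448 genes above 0 in at least 6 libraries (tolerance 0.01 of a read, or 0.05 for genes of 1000 reads or more), which gave the totals. Reads carry no molecular identifiers, so precision was taken from the spread between mice.

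log2(FPKM + 1) of 13039 genes was fitted with limma 3.58.1 under R 4.3.3, with 1 mean per group over all 24 libraries and eBayes with trend and robust. Tests were two-sided and adjusted by Benjamini-Hochberg over all genes within each of 11 comparisons, and a pseudocount of 1 shrinks differences of low genes. The steps were tested on simulated data. Alternatives changed the pseudocount (0.1), the filter (none, or a mean of at least 5 FPKM), the scaling (3 kinds), the libraries that set the spread (only both groups of a comparison) and their weights (array weights), and tried a replicate block, voom on recovered reads, and the omission of single libraries; leaving out the 4 libraries with a Y-linked sum under 35 FPKM was added after the values were seen. Ctla2a, Ctla2b and the highest and lowest member are given by library, members called in model minus control or treatment minus model by library or as group means, and listed genes are up to 4 calls with the smallest p. The members and lists were chosen with earlier results of these data known.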

Additional observations from a re-analysis of the deposited data

Results flagged for a closer look

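In each group of 4 libraries the highest and lowest value of each of the 40 genes was set against Dixon's 95% critical value for 4 samples, and 11 of 240 groups had a library that stood far from the other 3; chance alone gives about 1 in 20. Model day 15 replicate 3 was far above its group for Ctsb (1193 FPKM, the others 907 to 947) and Laptm5 (94.4 FPKM, the others 48.9 to 56.2). It also had the highest macrophage and neutrophil marker sums of all libraries, 4337 and 3020 FPKM, and the part of these cells in its values was not tested. Model day 15 replicate 2 was far above for Gaa (23.9 FPKM). Model day 10 replicate 1 was far below for Ctso (10.9 FPKM, the others 12.3 to 12.4) and Cd63 (154 FPKM, the others 214 to 217), and model day 10 replicate 3 for Gla (6.86 FPKM). In control skin, Manba was far below in replicate 3 at day 10 (4.90 FPKM) and again in replicate 3 of day 15 (5.09 FPKM), which are different mice. Idua was far above in control day 10 replicate 1 (2.40 FPKM), Lamp2 in control day 10 replicate 3 (102.5 FPKM), and Scarb2 far below in control day 10 replicate 2 (48.6 FPKM).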

How the results depend on the processing

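No called difference among the 40 genes, in any of the 9 comparisons of 2 groups, changed sign under any alternative run. Counts of calls in this section are of the 40 genes alone. The share of all genes called under the same setting is not given beside them. They show how far the calls move with a setting, and do not set the 40 genes against other genes. Model minus control kept 20 calls at day 10 and 14 at day 15 with voom on recovered reads, and 13 and 4 of those calls passed in each of the 11 alternatives that kept all libraries or left out the low Y-linked ones. Array weights gave 34 and 27 calls at day 10 and day 15, and for treatment minus model at day 10, treatment minus control at day 10 and day 15, and the change of treatment minus model between days 7, 28, 8 and 1. With the same weights, day 15 minus day 10 gave 4 calls in treatment, 9 in model and 12 in control skin. Without the filter, model minus control at day 15 gave 7 calls, and day 15 minus day 10 gave 0 in treatment, 1 in model and 0 in control skin. With only the groups compared, treatment minus model at day 15 gave 0 calls, treatment minus control at day 10 gave 24, and day 15 minus day 10 gave 0 in treatment, 0 in model and 9 in control skin. Quantile normalization gave 8 calls for treatment minus control at day 10, and for day 15 minus day 10 gave 2 in treatment and 1 in control skin. Median-of-ratios scaling gave 3 calls, all higher, in treatment and 1 in control skin for day 15 minus day 10; in model skin it moved the median of all genes by 0.107. A common FPKM total gave 2 calls in treatment and 1 in model skin for the days, a mean of at least 5 FPKM 0 in model and 1 in control, a pseudocount of 0.1 1 in model, and voom 2 in treatment and 3 in model. For each of these the cause was not tested.

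Replicate numbers came from the labels, but same-numbered libraries had correlations of -0.63 to 0.51 and 8 of 24 pairs exceeded 0.1, so the numbers were not taken as pairs. With a replicate block, model minus control gave 9 calls at day 15, treatment minus control 3 at day 10, and day 15 minus day 10 gave 0 in all 3 kinds of skin. Without the 4 libraries with low Y-linked transcripts, replicate 3 is the only treatment library left at day 15. Counts of calls from comparisons that rest on that single library are not given, because it holds no spread of its own. Day 15 minus day 10 gave 4 calls in model and 5 in control skin. Model minus control then gave 23 at day 15, and treatment minus control 10 at day 10. The lone library was assumed to vary like the other groups.

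Leaving out 1 library each gave 7 to 24 calls for model minus control at day 10 and 2 to 19 at day 15. At day 10 the count was 7 without control replicate 3 or model replicate 2 or 3, 8 without model replicate 4, and 9 without control replicate 1 or 4. At day 15 it was 2 without control replicate 4 or model replicate 2, 3 without control replicate 2 or 3 or model replicate 3, and 7 without model replicate 4. Treatment minus model gave 0 to 0 at day 10 and 5 to 16 at day 15, with 16 without treatment replicate 2. Treatment minus control gave 1 to 6 at day 10 and 0 to 17 at day 15. Day 15 minus day 10 gave 0 to 2 in treatment, 0 to 4 in model and 0 to 2 in control skin. Both tests of change between days gave 0 to 0. Depth limits Ctsw most, with as few as 19 reads in a library.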
